A study of Mus musculus with 285 samples.

Results

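The genes described here are the voltage-gated and potassium channel genes of mouse skeletal muscle, taken as every gene whose symbol starts with Kcn, with Scn and a digit, or with Cacn, and that was measured in 80% or more of the mice. There were 97 of them among the 11622 named genes of the array. Of these, 69 belong to potassium channels, 19 to voltage-gated calcium channels and 9 to voltage-gated sodium channels, accessory subunits included. Symbols written in capitals, of which 3 start with KCN, were not counted. Kcnmb4os1, a transcript named as antisense to Kcnmb4, was counted because its symbol fits. All but 1 channel gene had a single probe. Kcnma1 had 2 probes, which correlated over the mice at a Pearson r of only 0.149.

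The series holds muscle RNA of 285 F2 mice, females and males, from crosses of C57BL/6J and C3H/HeJ in both directions. All ate chow with 4% fat, were given a Western diet (42% fat, 0.15% cholesterol) at 8 weeks, and were killed at 20 weeks after fasting for 12 hours. Every array set 1 mouse against the same pool of RNA from all mice, so the values are log ratios, taken here as log2 of mouse over pool. They give the order of the mice for each gene, and never the level of one channel against another or whether a channel is present in muscle at all. The labels give neither the sex nor the genotype of a mouse, nor which muscle was taken. The mice therefore form 1 group, and the mouse number, 51 to 362, is the only order among them. The numbers were cut into 16 runs of 20, and every test below compares mice within runs unless it names the runs. That each mouse is a separate animal rests on the labels, and the p-values measure the spread between these arrays. The dyes were given but not the sign of the ratio, and some pairs of arrays correlated below -0.3 (2.35% of pairs, down to -0.743). The Y-linked genes Eif2s3y and Kdm5d had mean linear ratios of 0.796 and 0.942 read as mouse over pool, and of 23.2 and 3.43 with the sign turned. Against a pool of equal parts from all mice, a mean linear ratio would lie near 1. For both genes the reading as mouse over pool lay nearer to that value. With the sign turned, the marker scores used below would turn as well, so slopes on them would keep their sign.

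Voltage-gated sodium and potassium channels carry the action potential along the fibre surface and into the T tubules. There a calcium channel complex senses the voltage and triggers calcium release from the store. Inward rectifier and leak potassium channels set the resting potential. A piece of muscle also holds myelinated nerve, in which potassium channels lie beside the nodes of the axon, and vessels, in whose smooth muscle potassium and calcium channels set the tone. Each of these cell types has marker genes, and the question here was which channel genes followed the markers of slow fibres, fast fibres, nerve sheath or smooth muscle from mouse to mouse.

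Channel genes varied about as much as other genes. Their SD over the 285 mice had a median of 0.20 on the log2 scale, with 5th and 95th percentiles of 0.11 and 0.50, against a median of 0.21 over all named genes. In 10% or more of the mice, only Kcnj14 among the channel genes lay 2-fold or more above or below the pool, a mark that 335 of the 11622 named genes reached. It encodes an inward rectifier, and its values ran from -2.70 through a median of -0.10 to 2.49, with 24 mice 2-fold or more above the pool and 31 as far below it. Cacnb4, an accessory subunit best known from neurons, came next with an SD of 0.64 and values from -2.86 through 0.07 to 2.83. Kcna1, a potassium channel of myelinated axons, had an SD of 0.53 and ranged from -1.41 through 0.22 to 1.49. The other 9 of the 12 widest were Kcnn2, Kcnk1, Kcne4, Kcnq1, Kcna5, Scn7a, Kcne3, Kcnn3 and Scn2b, with SDs between 0.42 and 0.50. Kcnk1, a leak channel, was lopsided, with a lowest value of -0.50, a median of -0.02 and a highest of 2.60. Kcnn3, a calcium-activated potassium channel, had a single mouse far out at 2.69, while its 95th percentile was 0.77. Among the narrower genes, Kcnma1, the pore of the large calcium-activated potassium channel, had an SD of 0.11 and stayed between -0.28 and 0.40. Its values are the mean of 2 probes, unlike those of the other channel genes.

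**Figure D1:**
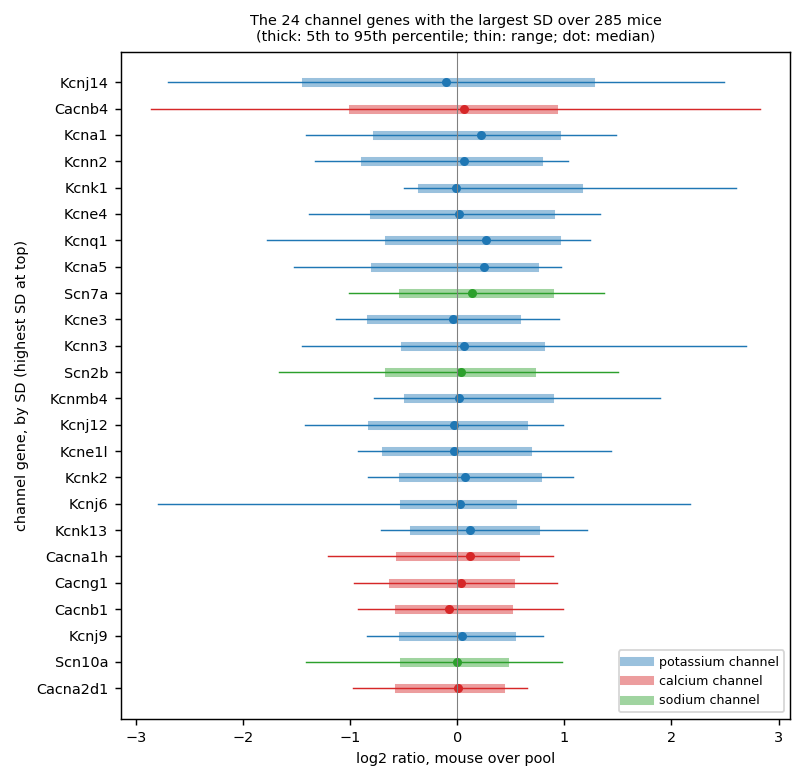
Log2 ratio of mouse over pool (horizontal axis) for the 24 channel genes with the largest SD over 285 mice, each drawn with its range as a thin line, its 5th to 95th percentile as a thick line and its median as a dot, coloured by channel class. Kcnj14 and Cacnb4 have the widest spans, Kcnk1 reaches 2.60 above the pool but only -0.50 below it, and Kcnj6 and Kcnn3 are drawn out by single mice.

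Marker scores were built as the mean z value of the measured members of a list, scaled to an SD of 1 over mice. The slow fibre score held 9 of 13 listed genes (Myh7, Myl2, Tnnt1, Tnnc1, Tnni1, Tpm3, Atp2a2, Casq2 and Myoz2), and the fast fibre score 5 of 13 (Mylpf, Tnnc2, Pvalb, Atp2a1 and Casq1). The Schwann cell score held 12 of 20 genes of the nerve sheath, among them Mbp, Pmp22, Mag, Sox10 and Mal, and the smooth muscle score 11 of 13, among them Acta2, Tagln, Myh11 and Cnn1. Within runs the members of a list correlated with each other at a median r of 0.777 for slow fibre, 0.305 for fast fibre, 0.200 for Schwann cell and 0.107 for smooth muscle genes, so the last scores are looser summaries. Every feature of the array, 21512 in all with 9890 unnamed probes, was fitted on a score with the runs as a factor (limma, Benjamini-Hochberg adjustment over all features outside the list). A gene was called when its adjusted p was under 0.05 and the score accounted for at least 9% of its variance within runs. A slope is the change in log2 ratio for 1 SD of the score, given with its standard error. In whole muscle, more cells of a type and more RNA per cell cannot be told apart, so a slope does not say which of them moved.

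The fast fibre score was followed by 2 subunits of the calcium channel of the T tubule. Within runs that score correlated at 0.110 with the slow fibre score. It correlated at 0.598 with a score of oxidative phosphorylation genes and at 0.440 with one of white adipocyte genes. Members of the white adipocyte list hardly correlated with each other within runs (median r 0.068). None of the listed fast myosin heavy chain genes was measured, and whether the fast fibre score follows fast fibre content was not tested. Cacna1s, the pore and voltage sensor of that channel, had values from -0.85 through a median of -0.16 to 0.51. In the 3 mice with the highest fast fibre scores it stood at -0.08, 0.51 and -0.07, and in the 3 with the lowest scores at -0.74, -0.39 and -0.53, so these mice did not overlap. Its slope was 0.16 ± 0.01 (limma adjusted p = 1.62e-39, n = 285), and the score accounted for 49.9% of its variance within runs, more than for any other channel gene on any of the 4 scores. Cacnb1, the subunit that carries the pore to the membrane and docks it for calcium release, ranged from -0.93 through -0.08 to 0.99. It stood at 0.99, 0.50 and 0.61 in the 3 highest-score mice and at -0.44, -0.28 and -0.30 in the 3 lowest-score mice, again without overlap. Its slope was 0.18 ± 0.02 (limma adjusted p = 4.91e-22), with 31.8% of the variance. Kcnk9, an acid-sensitive leak potassium channel, rose by 0.08 ± 0.01 (limma adjusted p = 9.62e-20, 29.2% of the variance). It was at 0.34, 0.17 and 0.26 in the highest-score mice and at -0.34, 0.0084 and -0.24 in the lowest-score mice. The named genes most like Cacna1s were Gstp1 (Pearson r 0.78, Spearman rho 0.80), Rpl14 (0.74, 0.77) and Actn2 (0.73, 0.73). Those most like Cacnb1 were Med1 (0.67, 0.66), Aamp (0.66, 0.63) and Zscan2 (0.65, 0.63). None of them is a member of the fast fibre score.

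The promoter of Cacna1s is shown because this gene followed fast fibre genes most closely. It lies at chr1:136052561-136052860 on the plus strand of GRCm38.p6, in the RefSeq window of 250 bases before to 50 bases after the start. Capitals mark the hexamer CAGCTG, the E-box form bound by the myogenic factors, searched on both strands.

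Cacna1s promoter: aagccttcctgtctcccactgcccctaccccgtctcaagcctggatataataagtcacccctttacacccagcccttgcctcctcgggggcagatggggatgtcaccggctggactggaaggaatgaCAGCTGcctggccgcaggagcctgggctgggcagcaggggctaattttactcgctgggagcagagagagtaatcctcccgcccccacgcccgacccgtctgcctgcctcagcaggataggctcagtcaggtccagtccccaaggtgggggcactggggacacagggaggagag

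The hexamer stood once, 123 bases before the start. It occurred in 16.3% of all 32851 windows of the same length, in neither of the 2 windows of Cacnb1 and in the window of Kcna5, so a match of this kind is common and describes only these letters.

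The other subunits of the T tubule complex did not move as a unit with Cacna1s. All 5 listed subunits were measured. On the fast fibre score 2 rose, against 16% of all features, with a median slope of 0.07. On the smooth muscle score Cacna2d1 fell (-0.09 ± 0.02, 9.29%), against 8.72% of all features, and no subunit was called on the slow fibre or Schwann cell score. Cacna2d1, the extracellular accessory subunit, had a slope of 0.07 ± 0.02 with 6.75% of the variance, under the limit of 9%. Cacng6, a gamma subunit, had 0.03 ± 0.01 with 5.14%. Cacng1, the gamma subunit of skeletal muscle, had a slope of the other sign, -0.08 ± 0.02 with 6.15%. Between subunits, Cacna1s and Cacnb1 correlated within runs at 0.605 and Cacna2d1 and Cacnb1 at 0.324, while Cacng1 correlated with Cacna1s at -0.259 and with Cacnb1 at -0.235. Cacng1 rose instead with a score of neuromuscular junction genes (0.20 ± 0.02, limma adjusted p = 1.63e-21, 30.9% of the variance). It fell with white adipocyte genes (-0.18 ± 0.02, 23.8%) and with genes of oxidative phosphorylation (-0.23 ± 0.02, 41.5%). With 5 array-wide components as covariates the junction and white adipocyte calls of Cacng1 were lost, and its white adipocyte slope was 0.010.

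In all, 27 of the 97 channel genes rose with the fast fibre score and 1 fell, against 16% of all features that rose and 8.43% that fell. The median slope was 0.02 over the channel genes and 0.00022 over all features tested. Besides the genes above, the risers with the largest share of variance were Cacng2 (0.08 ± 0.01, 25.0%), Kcns1 (0.08 ± 0.01, 22.4%), Kcnj3 (0.12 ± 0.01, 21.1%), Kcnma1 (0.04 ± 0.01, 20.1%) and Scn2b (0.18 ± 0.02, 20.1%). Cacng2 is an auxiliary subunit of glutamate receptors in the brain, Kcns1 a silent modifier of other potassium channels, Kcnj3 a G protein-gated inward rectifier of heart and neurons, and Scn2b an accessory sodium channel subunit of neurons. Scn7a, an atypical sodium channel known from sodium sensing, was the gene that fell (-0.12 ± 0.02, limma adjusted p = 6.49e-08, 11.4%). The remaining 19 risers, by falling share of variance, were Scn3a (0.11 ± 0.01), Kcnk15, Scn8a, Kcng1, Kcnk12, Cacna1b, Kcnj9, Kcnh7, Kcnd2, Kcnj13, Kcnh4, Kcnk4, Kcnj4, Kcnh3, Cacng8, Cacng7, Kcnab2, Scn11a and Kcna3 (0.04 ± 0.01). The genes most like Scn7a were Sh3bgrl (Pearson r 0.80, Spearman rho 0.81), Fmr1 (0.76, 0.77) and Itm2b (0.75, 0.76).

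Most of these calls moved together with variation that ran through the whole array. The first principal component over all features held 15.2% of the total variance, and it shared 27.6% of the within-run variance of the fast fibre score. Its share was 67.9% of the variance of Kcnk15, 66.1% of Kcns1, 62.8% of Cacng2 and 53.1% of Scn2b, against 25.3% of Cacna1s, 31.9% of Cacnb1 and 30.9% of Kcnk9. With this component as a covariate, 3 channel genes were called in place of 28, namely Cacna1s, Cacnb1 and Kcnk9. The share of all features called with the component as a covariate is not given here. With 5 components, Cacna1s and Kcnk9 were called. Cacna1s and Kcnk9 were called in each of the 15 alternative settings, with slopes of 0.11 to 0.17 for Cacna1s and 0.05 to 0.09 for Kcnk9 on the log2 scale. Cacnb1 was called in 14 of them.

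Several of these risers, with Kcnk7, which was not called, also correlated closely with each other. Among the 4656 pairs of channel genes the median within-run r was 0.03, with 683 pairs above 0.3 and 285 below -0.3. The same counts were not made over pairs of all named genes, so they do not set channel genes apart. Kcnj9, a G protein-gated rectifier, and Scn8a, a sodium channel of axon nodes, correlated at 0.926, Scn2b and Scn3a at 0.888, and Scn3a and Scn8a at 0.855. Further correlations were 0.813 for Kcng1 with Scn3a, 0.777 for Kcnh7 with Scn3a and 0.801 for Kcnk7 with Kcnj9. Genes other than channel genes lay as near. Over all mice Scn2b and Scn3a correlated at 0.883, and the named gene most like Scn2b over the 285 mice was the olfactory receptor gene Olfr702 (Pearson r 0.989, Spearman rho 0.986), and the thyroglobulin gene Tg was near both Kcnj9 (0.944, 0.942) and Scn8a (0.950, 0.937). Receptor genes of smell, taste and the vomeronasal organ made up at least 3 of the 20 nearest genes for 13 of the 97 channel genes (13.4%), such as Cacna2d2 and Kcnv2, against 5.48% of all named genes with a known chromosome. Scn2b, Scn3a, Scn8a, Kcnj9, Kcng1, Kcnh7 and Kcnk7 were not among the 13. The pairs share arrays, and these correlations are descriptions.

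The oxidative phosphorylation score, of 5 measured genes such as Cox8b and Cox4i1, called more channel genes than any other score: 43 rose and 11 fell, against 26.5% and 18% of all features. This score shared 68.5% of its within-run variance with the first array-wide component and correlated at 0.598 with the fast fibre score. Kcnk15, a leak channel gene, had the closest fit with a slope of 0.12 ± 0.01 and 56.4% of the variance. That call and those of Cacng7 and Kcnma1 were lost with the first array-wide component as a covariate. What part the component has in the other calls was not tested beyond these values.

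On the slow fibre score, of the 97 channel genes 2 rose and 1 fell, against 1.81% of all features that rose and 2.28% that fell, so these counts are near the background. Kcng2, a silent subunit that modifies other voltage-gated potassium channels, ran from -1.07 through -0.06 to 0.80 over the mice. It was at -0.04, 0.40 and 0.36 in the 3 mice with the highest slow fibre scores and at -0.43, -0.29 and -0.31 in the 3 with the lowest, without overlap. These mice were not picked within runs. Between runs lay 68.5% of the variance of the score and 39.9% of that of Kcng2. Within runs the slope of Kcng2 was 0.15 ± 0.02 (limma adjusted p = 4.18e-13, 20.7% of the variance). It was called in all 15 alternative settings, with slopes from 0.09 to 0.17. The named genes most like Kcng2 were Ces5a (Pearson r 0.63, Spearman rho 0.66), Rab11fip5 (0.62, 0.65) and Ankrd2 (0.56, 0.56), a stretch-responsive gene of slow fibres.

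Kcnc4, a fast-acting potassium channel of muscle that pairs with the accessory subunit of Kcne3, rose by 0.09 ± 0.02 with slow fibre genes (limma adjusted p = 8.86e-06, 9.25%). Its range was narrow, from -0.47 through 0.02 to 0.74. The call was lost in 7 of the 15 settings, and without the runs the slope was -0.032. Kcnk1 fell by 0.23 ± 0.04 on the log2 scale (limma adjusted p = 5.12e-06, 9.57%), and its call was lost in 5 settings. The genes most like Kcnk1 were Cds1 (Pearson r 0.66, Spearman rho 0.69), Lrrc8a (0.64, 0.71) and Tfcp2l1 (0.62, 0.66). Among the 8 measured of 10 listed potassium channels of muscle, Kcnc4 was the only one called on any of the 4 scores. Of all features, 1.81% rose and 2.28% fell on the slow fibre score, and 16% and 8.43% on the fast fibre score. On the Schwann cell score the shares were 0.865% and 0.493%, and on the smooth muscle score 7.08% and 8.72%. With only 8 genes, these counts do not set muscle channels apart from other features. Kcne3, the partner of Kcnc4, had a slow fibre slope of 0.08 ± 0.04. The inward rectifiers Kcnj2, Kcnj11 and Kcnj12 had slow fibre slopes of 0.03 ± 0.03, 0.03 ± 0.01 and -0.05 ± 0.04. Of the muscle sodium channel list, Scn4b, an accessory subunit, was the only 1 of 4 members measured. It was not called on either fibre score (-0.01 ± 0.01 slow, 0.01 ± 0.01 fast).

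**Figure D2:**
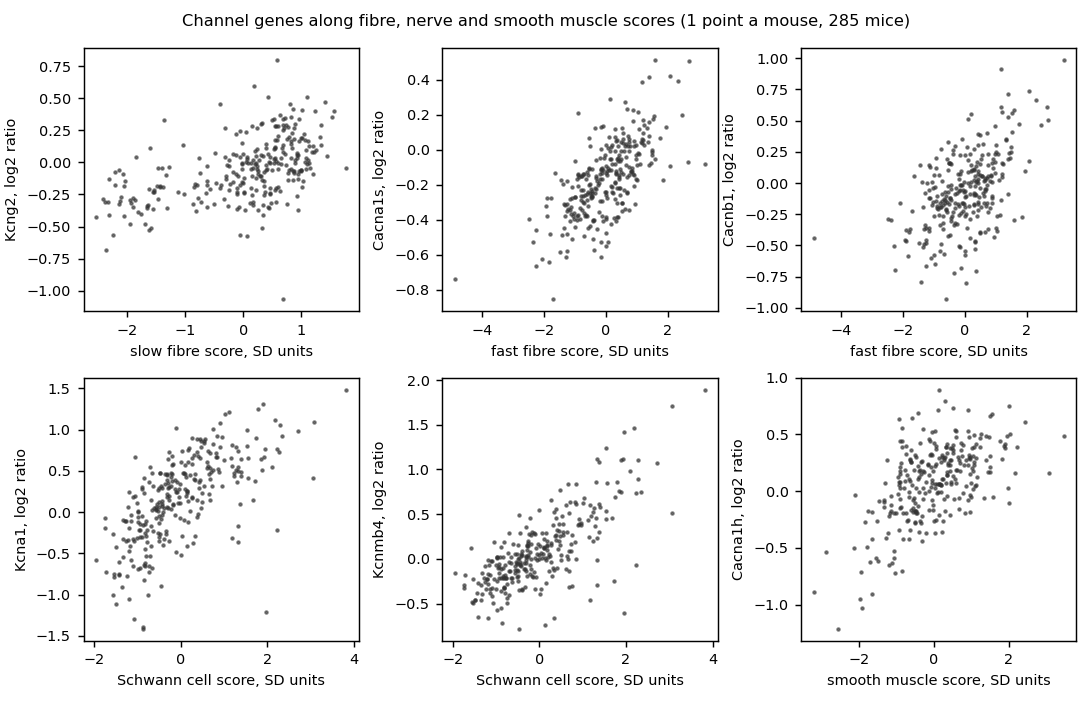
Log2 ratio of 6 channel genes (vertical axes) against a marker score in SD units (horizontal axes), 1 point a mouse, over all 285 mice and without the run term. Kcng2 is shown on the slow fibre score, Cacna1s and Cacnb1 on the fast fibre score, Kcna1 and Kcnmb4 on the Schwann cell score and Cacna1h on the smooth muscle score, and each cloud rises from left to right.

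The Schwann cell score was followed by 2 potassium channel subunits more closely than by any other channel gene. In all, 3 channel genes rose and 1 fell, against 0.865% and 0.493% of all features. Kcnmb4, an accessory subunit of the large calcium-activated potassium channel known from neurons, ranged from -0.78 through 0.01 to 1.89. The 3 mice with the highest Schwann cell scores had values of 1.89, 1.71 and 0.51, and the 3 with the lowest had -0.15, -0.29 and -0.33, with no overlap. Its slope was 0.25 ± 0.02 (limma adjusted p = 1.36e-26), with 38.4% of the variance within runs. Kcna1, which lies beside the nodes of myelinated axons, stood at 1.49, 1.09 and 0.41 in the highest-score mice and at -0.58, -0.07 and -0.20 in the lowest-score mice. Its slope was 0.29 ± 0.03 (limma adjusted p = 3.06e-20, 30.9%). Both genes were called in all 15 settings, with slopes of 0.22 to 0.37 for Kcnmb4 and 0.20 to 0.42 for Kcna1.

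Myelin genes were among the nearest named genes of both channels. For Kcnmb4 they were Mal (Pearson r 0.86, Spearman rho 0.78), Mbp (0.84, 0.80) and Pmp22 (0.81, 0.77). For Kcna1 they were Pmp22 (0.82, 0.81), Aatk (0.81, 0.79) and Mbp (0.78, 0.78), where Aatk, a kinase gene, is no member of the score. Mal, Mbp and Pmp22 are members of the score. Mouse 325 had the highest value of all mice for both channel genes. The other calls were smaller. Kcnh2, a delayed rectifier known from the heart, rose by 0.06 ± 0.01 (9.76%), a call lost in 6 settings and of the other sign (-0.022) with the first principal component of the list as the score. Kcng3, a silent subunit, fell by 0.07 ± 0.01 on the log2 scale (12.0%), a call lost with 5 array-wide components and with the first principal component of the list as the score.

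The promoter of Kcnmb4 is printed as the channel gene that followed nerve sheath genes most closely. It lies at chr10:116473474-116473773 on the minus strand of GRCm38.p6, in the same kind of RefSeq window. Capitals mark CTTTGT, the reverse complement of ACAAAG, a core bound by SOX factors such as Sox10 of Schwann cells. ACAAAG and ACAATG were searched on both strands.

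Kcnmb4 promoter: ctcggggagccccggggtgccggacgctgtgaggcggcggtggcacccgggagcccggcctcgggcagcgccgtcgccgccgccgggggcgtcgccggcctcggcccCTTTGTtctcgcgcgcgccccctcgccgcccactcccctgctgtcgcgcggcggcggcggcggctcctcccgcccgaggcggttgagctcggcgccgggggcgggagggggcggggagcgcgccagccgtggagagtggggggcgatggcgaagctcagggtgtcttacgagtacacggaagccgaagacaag

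The match stood 143 bases before the start. Of all windows, 28.6% held one of the hexamers, so a match of this kind is common too.

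Other channels of axons did not follow the sheath. Of 23 listed genes of the axon and its nodes, 15 were measured, 1 (Kcna1) was called on the Schwann cell score, against 0.865% of all features that rose, and the median slope was -0.00074. The node sodium channel Scn8a had a Schwann cell slope of -0.0044 ± 0.016. On the smooth muscle score Kcna1 rose and Scn11a and Cacna1b fell, against 7.08% and 8.72% of all features. On the fast fibre score 6 of the 15 rose, against 16% of all features, namely Scn2b, Scn3a, Scn8a, Scn11a, Kcnab2 and Cacna1b, all among the calls that were lost with the first array-wide component. A score of axon genes such as Nefl and Prph, whose members hardly correlated within runs (median r -0.04), called 8 channel genes upwards and 2 downwards, against 7.06% and 2.3% of all features. The downward calls were Cacnb4 (-0.26 ± 0.04, limma adjusted p = 2.11e-09, 15.7%), called in all 5 settings tried, and Cacng1 (-0.10 ± 0.02, 10.1%).

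The smooth muscle score was followed by the T-type calcium channel Cacna1h and by potassium channels. In all, 6 channel genes rose and 12 fell, against 7.08% and 8.72% of all features, with a median slope of -0.013 over the channel genes and -0.0062 over all features. Cacna1h ranged from -1.21 through 0.12 to 0.89. It was at 0.49, 0.16 and 0.61 in the 3 mice with the highest smooth muscle scores and at -0.89, -0.54 and -1.21 in the 3 with the lowest, without overlap. The slope was 0.21 ± 0.02 (limma adjusted p = 4.12e-23, 33.6%), and the named gene most like it was the smooth muscle myosin gene Myh11 (Pearson r 0.76, Spearman rho 0.69), a member of the score. Kcna5, a delayed rectifier of vessels and heart, ran from -1.53 through 0.25 to 0.97. It stood at 0.62, 0.26 and 0.45 in the highest-score mice and at -1.53, -1.02 and -0.61 in the lowest-score mice. It rose by 0.18 ± 0.02 (limma adjusted p = 1.11e-14, 22.3%), and its nearest genes were Mcf2l (Pearson r 0.89, Spearman rho 0.86), Plxna2 (0.83, 0.78) and Esam (0.83, 0.81), a junction protein gene of endothelium.

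Kcna1 appeared here too, with a slope of 0.30 ± 0.02 and 38.7% of its variance. Its values were 0.39, 0.11 and 1.08 in the highest-score mice and -1.39, -1.11 and -1.41 in the lowest-score mice. The Schwann cell and smooth muscle scores correlated within runs at 0.327. In a fit of all 4 scores together, 6 channel genes rose and 1 fell on the Schwann cell score (2.83% and 0.395% of all features), and 5 rose and 7 fell on the smooth muscle score (6.71% and 8.95%). On the fast fibre score 23 rose and 1 fell (12.8% and 6.85%). On the slow fibre score Kcng2 alone was called (2.16% of all features rose and 2.37% fell). At an unadjusted p under 0.05, 12 channel genes rose and 14 fell, with no share of all features taken at that limit. Kcna1 kept a slope of 0.20 ± 0.02 on the Schwann cell score (22.2%) and of 0.23 ± 0.02 on the smooth muscle score (28.8%). Kcnmb4 kept its slope on the Schwann cell score (0.23 ± 0.02, 34.2%), while its slope of 0.14 ± 0.02 on the smooth muscle score alone was 0.05 ± 0.02 in the joint fit and no longer called. Kcnq1, a delayed rectifier, and Kcne4, an accessory subunit, rose by 0.20 ± 0.02 (21.9%) and 0.16 ± 0.03 (11.0%). The genes most like Kcnq1 were Arhgap23 (Pearson r 0.83, Spearman rho 0.76), Ppp4r1 (0.83, 0.75) and Rhbdf1 (0.83, 0.73).

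Cacna1h and Kcna1 were called on the smooth muscle score in all 15 settings and Kcna5 in 14. Kcnq1, Kcne4 and Kcnmb4 lost the call with the first array-wide component and in the 142 mice numbered from 216 on. So did each of the 12 genes that fell, of which all but Cacng3 and Cacna2d1 had risen with the fast fibre score. In the mice from 216 on, the 4 channel genes called were all risers, a count not set against all features. The smooth muscle score also moved with other scores: within runs it correlated at 0.642 with endothelium, 0.552 with pericyte and 0.512 with neuromuscular junction genes. Cacna1h followed endothelium genes (0.23 ± 0.02, 42.6%) and pericyte genes (0.22 ± 0.02, 32.0%) in all 5 settings tried. The part of each cell type in these slopes was not tested.

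Several channels known from vessels were not called. Of 10 listed vascular channels 7 were measured and 2 (Cacna1h and Kcna5) rose with the smooth muscle score, against 7.08% of all features, with a median slope of 0.00068. Kcnma1 and Kcnmb1, pore and accessory subunit of the large calcium-activated potassium channel of vessels, had smooth muscle slopes of -0.03 ± 0.01 and -0.02 ± 0.01. Kcnab1 had 0.00068 ± 0.018. Kcnj8, the pore of the ATP-sensitive potassium channel of vessel walls, had a slope of 0.05 ± 0.02 on the smooth muscle score, under the limit. It was called on the endothelium score (0.12 ± 0.02, limma adjusted p = 7.76e-12, 18.1%) in all 5 settings tried. Its values were 0.20, 0.33 and 0.44 in the 3 mice with the highest endothelium scores and -0.11, -0.53 and -0.12 in the 3 with the lowest. The nearest genes of Kcnj8 were Gper1, Cd300lg and Cldn5, with Pearson r between 0.50 and 0.53 and Spearman rho between 0.49 and 0.54. Cldn5 is a member of the endothelium score. On the endothelium score 5 channel genes rose and 4 fell, against 6.96% and 6.11% of all features.

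**Figure D3:**
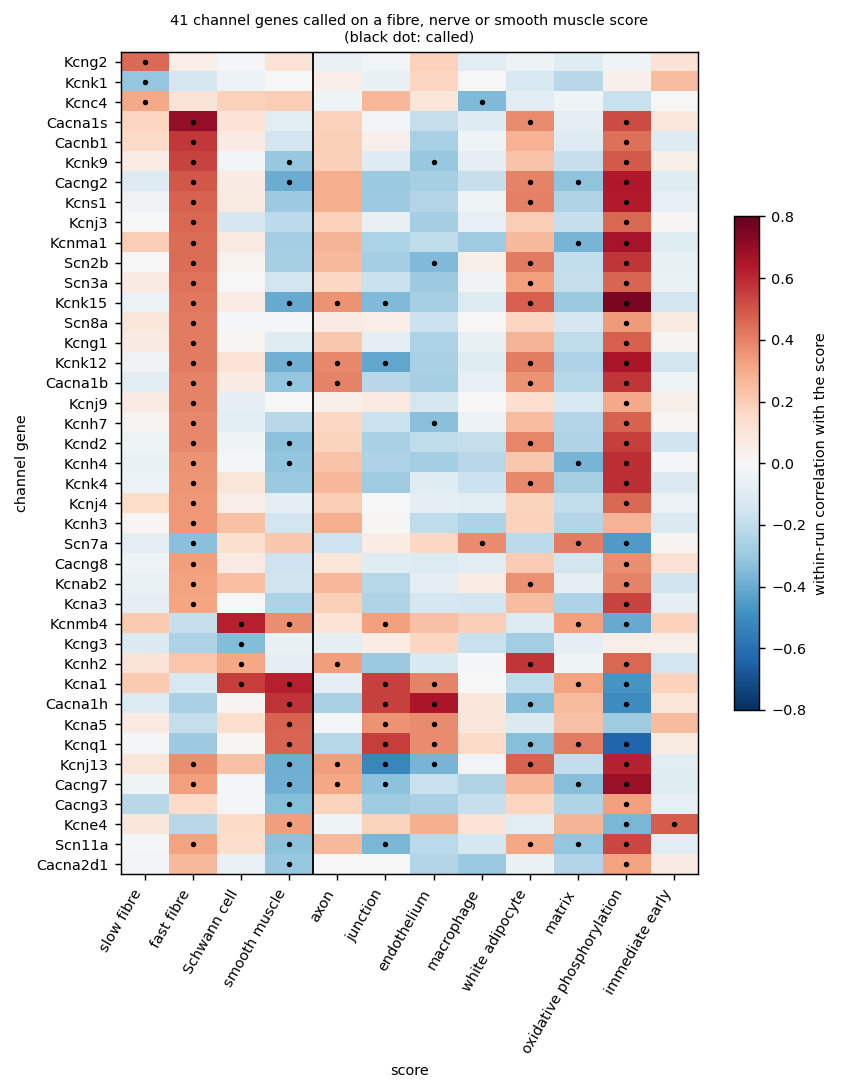
Within-run correlation (colour, from -0.8 in blue to 0.8 in red) of the 41 channel genes called on at least 1 of the 4 main scores with those scores (left of the line) and with 8 further scores (right of it), with a black dot at each call. Most of the fast fibre followers carry the same colour in the oxidative phosphorylation column, while Kcna1 and Kcnmb4 are red in the Schwann cell column and Cacna1h in the smooth muscle, junction and endothelium columns.

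Single channel genes followed cells outside the 4 main scores, each set against its own background. Kcnk13, a leak channel known in the brain from microglia, followed the macrophage score more closely than any channel gene followed any of the 4 main scores. Its values ran from -0.71 through 0.11 to 1.21, with 0.41, 0.89 and 0.77 in the 3 mice with the highest macrophage scores and -0.64, -0.25 and -0.26 in the 3 with the lowest. The slope was 0.23 ± 0.01 (limma adjusted p = 5.19e-45, 54.2%), and its nearest gene was the macrophage growth factor receptor gene Csf1r (Pearson r 0.81, Spearman rho 0.81), a member of the score. Macrophage and matrix scores correlated at 0.655 within runs, and Kcnk13 also followed matrix genes (0.21 ± 0.02, 39.3%). Both calls held in all 5 settings tried. On the macrophage score 4 channel genes rose and 2 fell, against 6.11% and 1.42% of all features.

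Kcnk3, an acid-sensitive leak channel expressed in brown fat, lay near the pool in most mice, with a median of -0.01 and a 95th percentile of 0.32. It was at least 2-fold above the pool in 4 mice, numbers 348, 330, 287 and 272, with 1.83, 1.74, 1.57 and 1.20. The log2 ratio of Ucp1, the uncoupling protein of brown fat, was 6.09, 6.16, 5.33 and 5.89 in these 4 mice, ranks 2, 1, 5 and 3 of all mice. Kcnk3 rose with the white adipocyte score by 0.17 ± 0.01 (limma adjusted p = 3.49e-23, 34.3%), in all 5 settings tried. On that score 20 channel genes rose and 8 fell, against 14.7% and 9.65% of all features. Its nearest gene was Pfkl, with a Pearson r of 0.83 and a lower Spearman rho of 0.60.

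Kcne4 was the only channel gene called on the immediate early score, which holds genes such as Egr1, Fos and Jun that respond within minutes to a stimulus (1.29% of all features rose and 0.414% fell). It ranged from -1.39 through 0.02 to 1.33, with 0.30, 0.68 and 0.75 in the 3 highest-score mice and -0.33, -0.54 and -1.39 in the 3 lowest-score mice. The slope was 0.23 ± 0.03 (limma adjusted p = 7.97e-15, 23.3%), called in all 5 settings tried. Its nearest genes were Egr2 (Pearson r 0.72, Spearman rho 0.73), Ier2 (0.67, 0.69) and Ackr3 (0.66, 0.65). Ier2 is a member of the immediate early score, and Egr2 is a member of the Schwann cell score.

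Kcnj12, a strong inward rectifier of muscle, rose with the junction score by 0.23 ± 0.02 (limma adjusted p = 6.86e-23, 32.6%), in all 5 settings tried. It stood at 0.72, 0.48 and 0.34 in the 3 mice with the highest junction scores and at -0.59, -0.58 and -0.26 in the 3 with the lowest, without overlap. The gene most like it was Sgca, a gene of the muscle membrane complex (Pearson r 0.65, Spearman rho 0.60). On the junction score 10 channel genes rose and 6 fell, against 10.5% and 12.5% of all features. Kcnj14 rose with matrix genes by 0.42 ± 0.05 (limma adjusted p = 1.18e-14, 21.9%), in all 5 settings tried, and its nearest genes were Mest (Pearson r 0.85, Spearman rho 0.83), Crtac1 (0.82, 0.81) and Ptger3 (0.82, 0.80). On the matrix score 9 channel genes rose and 7 fell, against 6.34% and 3.38% of all features.

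Kcnn4, a calcium-activated potassium channel of immune cells, rose with the lymphocyte score by 0.08 ± 0.01 (14.6%), a call lost with 5 array-wide components and with ranks in place of values. On the lymphocyte score 2 channel genes rose and 1 fell, against 3.7% and 1.84% of all features. With 19 falls, the pericyte score called the most channel genes downwards, against 14.2% of all features, and 6 rose, against 7.68%. Within runs the median r between list members was only 0.055 for pericyte, 0.093 for keratinocyte and 0.036 for denervation genes. These 3 scores are therefore loose summaries. On the keratinocyte score 7 rose, against 4.56%, and no fall was called, against 1.45%. On the tendon score 2 rose, against 2%, and no fall was called, against 0.791%. At an unadjusted p under 0.05, 18 fell on the keratinocyte score and 34 on the tendon score. The percentages above belong to the stricter call and are no background for these 2 counts. The denervation score, with Myog and the fetal receptor subunit Chrng, called no channel gene by limma at both limits, against 0.846% of all features that rose and 0.46% that fell. At the adjusted p alone 9 rose and 6 fell with it, and at an unadjusted p under 0.05 the counts were 17 and 11. The hepatocyte score called none either, against 1.72% and 0.0093%. With it, 3 rose and 2 fell at the adjusted p alone, and 6 and 8 at an unadjusted p under 0.05. For these scores the shares of all features at the adjusted p alone or at an unadjusted p were not taken. Counts at those looser limits therefore do not set channel genes apart.

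**Figure D4:**
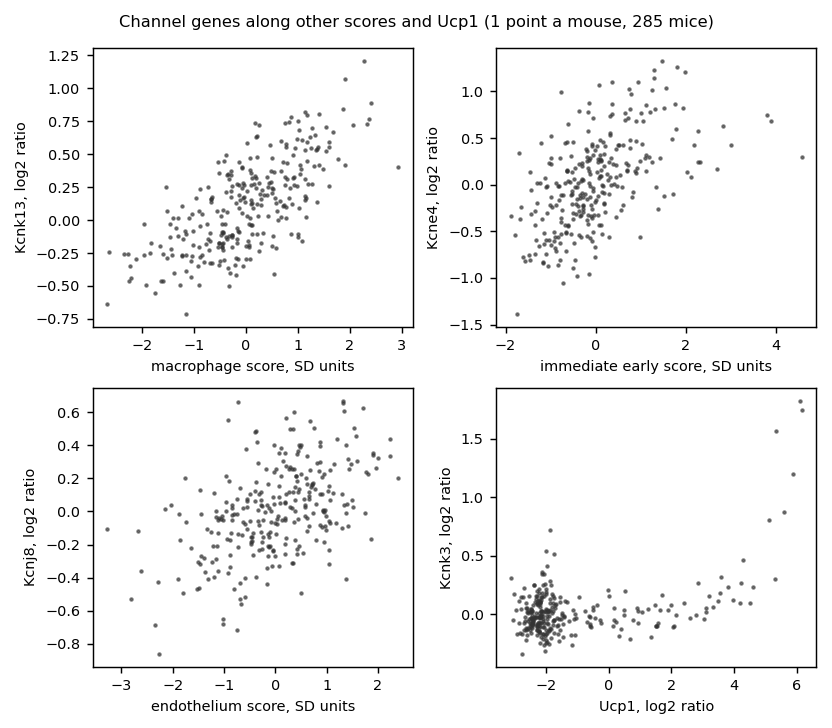
Log2 ratio of Kcnk13, Kcne4, Kcnj8 and Kcnk3 (vertical axes) against the macrophage, immediate early and endothelium scores in SD units and against the log2 ratio of Ucp1 (horizontal axes), 1 point a mouse, 285 mice. Kcnk13 rises evenly with the macrophage score, while Kcnk3 is flat over most of the range of Ucp1 and reaches 1.20 to 1.83 in 4 mice among those with the highest Ucp1 ratios.

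Some of the widest channel genes followed none of the 4 main scores, and part of their nearest genes lay on their own chromosome. Kcnn2, a calcium-activated potassium channel on chromosome 18 with values from -1.33 through 0.06 to 1.03, had slopes between -0.02 and 0.10 on the 4 scores, all under the limit. Of its 20 nearest named genes 10 lay on chromosome 18, led by Pcdhb3 (Pearson r 0.65, Spearman rho 0.66), Hspa9 (0.61, 0.62) and Rnf14 (0.58, 0.58). Kcne3 on chromosome 7 had 9 of 20 on its own chromosome, led by Ctsc (0.58, 0.61) and Me3 (0.57, 0.56), while Retnla (0.53, 0.51), next in order, lay elsewhere. Cacnb4 had 6 of 20 on chromosome 2, although its nearest genes, Tmem170b (0.62, 0.51) and Hlf (0.61, 0.50), lay elsewhere and Kif5c (0.60, 0.44) on it. Kcnj12 had 5 of 20 on chromosome 11. The median over the channel genes was 1 of 20, as over all named genes, and 4 of the 97 channel genes (4.12%) had at least 5, against 408 of 10922 named genes with a known chromosome (3.74%). The share among channel genes was therefore close to that of all genes, and the genotypes of these mice were not used here.

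Along the mouse number, 41 of the 97 channel genes differed between runs (limma moderated F, adjusted p under 0.05 and at least 20% of the variance between runs), against 45.8% of all features. Kcna5 had the largest share, 53.8% (limma adjusted p = 1.36e-35). Its run medians were -0.41 for numbers 51 to 70, -0.54 for 71 to 90, 0.15 for 91 to 110 and -0.54 for 111 to 130, and from 131 on they lay between 0.04 and 0.62. Scn4b had 50.8% between runs over a narrow span, with run medians from -0.29 in 331 to 350 to 0.08 in 191 to 210. Kcnmb4 had 44.4%, with its highest run medians of 0.68 and 0.63 in 311 to 330 and 331 to 350. The shares of Kcnq1 and Kcna1 were 43.8% and 43.1%. Kcnk1 had 1 run far from the rest: its median was 1.02 in 251 to 270 and at most 0.37 in every other run. Kcng2 was lowest in 331 to 350, at -0.31, and highest in 171 to 190, at 0.16.

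**Figure D5:**
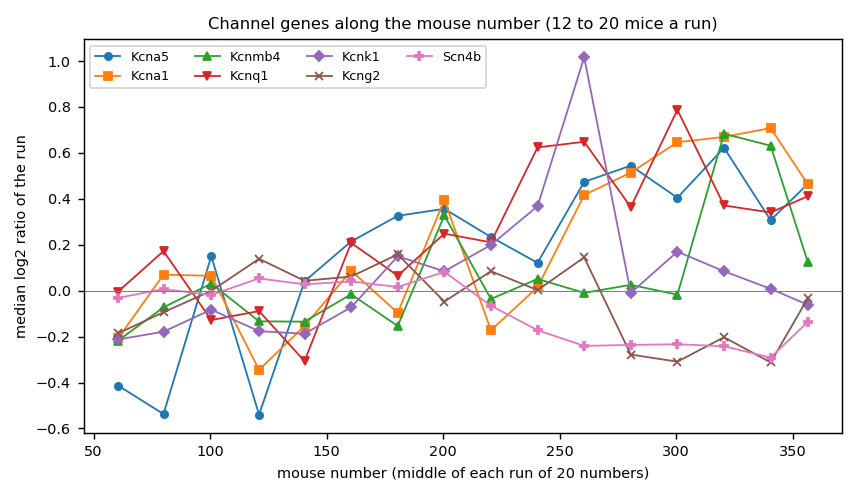
Median log2 ratio of 7 channel genes (vertical axis) in 16 runs of the mouse number (horizontal axis, at the middle of each run), with 12 to 20 mice a run. Kcnk1 has a single high run at 1.02, Kcna5 has 3 runs at or below -0.41 among the low numbers, and Kcng2 and Scn4b lie lower from number 271 on than before 211 in most runs.

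The markers ran along the mouse number as well, and their part in the run differences of the channel genes was not tested. Of the slow fibre score 68.5% of the variance lay between runs, of the Schwann cell score 41.3%, of the smooth muscle score 32.8% and of the fast fibre score 10.6%. The labels do not say whether the numbers mark litters, cages or days of dissection, so a run is a stretch of numbers and nothing more.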

How the data were processed

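Arrays with 2 colours compared Cy3-labelled RNA of each mouse with a Cy5-labelled pool, per the labels. The authors deposited 1 ratio per probe and mouse, read here as log10 of mouse over pool. The sources used here give neither the log base nor the normalization. Read in base 2, all log2 values here would be smaller by the same factor. Array medians lay between -0.0222 and 0.0173, and 471 and 178 values stood at the bounds of 2 and -2. The number of arrays limits the precision. No intensities were used, so signal over background is unknown.

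Of 23560 probes, 23510 had values on at least 80% of arrays. Missing values (0.0972%) were set to the probe mean. Probes were named from the platform annotation (13653 with 1 symbol, 48 with several, 9859 with none), updated by Entrez identifier for 12650, averaged per gene and converted to log2. Promoters are from RefSeq (GRCm38.p6).

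Scores, fits (limma 3.58.1, R 4.3.3) and limits are given with the results. On simulated data with independent noise for each gene and mouse, the fits were checked for recovery of known slopes. Array-wide components were not part of that check, so it says nothing on their effect. Mean z scores were taken over 18 marker lists. Members, lists and tests were chosen with earlier results of these data known. The text names every channel gene called on a main score up to 30 by adjusted p, the 12 widest, the T tubule and sodium channel lists, the 5 with the largest share between runs and the 3 nearest genes of the 10 widest. Channel genes named for other scores, vessels, the nearest genes of further channels and the group around Scn8a were chosen after their values were seen. The nearest gene is that of the highest Pearson r over 285 mice. Alternatives changed the run term, scaling, components, mice, ranks, score, probes and log base. For other scores 5 settings, chosen after seeing the data, were tried on the 3 channel genes of lowest adjusted p per score.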

Additional observations from a re-analysis of the deposited data

How the results depend on the processing

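Counts of channel genes called on a score depended on the run term, the array-wide components and the mice used. The counts in this paragraph are given without the share of all features called under each setting. They therefore do not set channel genes apart from other genes. On the slow fibre score 3 were called, against 5 without the run term, 1 with 5 array-wide components, 7 in the mice numbered up to 215 and 1 with the 4 scores together. On the fast fibre score 28 were called, against 18 without the run term, 3 with the first component, 2 with 5 components, 48 up to 215 and 50 with the first principal component of the list as score. On the Schwann cell score 4 were called, against 9 without the run term, 8 from 216 on, 28 with the list's first component and 7 with the scores together. On the smooth muscle score 18 were called, against 4 with the first component, 3 with 5 components, 35 up to 215, 4 from 216 on and 33 with the list's first component. Scaling every array to the median SD gave 8 that rose and 7 that fell there, against 6 and 12. Between runs, 33 to 47 were called under the 8 alternatives, against 41. The cause of these changes was not tested, except that the lower and upper numbers hold 143 and 142 mice.

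Slopes of some named genes changed sign. Without the run term Kcnc4 was at -0.032 on the slow fibre score. With the first array-wide component, fast fibre slopes were -0.014 for Cacng7, -0.0031 for Kcna3, -0.0032 for Kcnh4, -0.0051 for Kcnj13, -0.0018 for Kcnk15, -0.0054 for Kcnk4 and -0.0064 for Scn11a. With 5 components they were -0.0022 for Cacng7, -0.012 for Kcnj4, -0.0038 for Scn11a, -0.011 for Scn2b and 0.017 for Scn7a. The same 5 components gave Kcnk1 a slope of 0.048 on the slow fibre score and Cacng1 one of 0.010 on the white adipocyte score. They gave smooth muscle slopes of 0.00014 for Cacna1b, 0.0077 for Cacng7, 0.0047 for Kcnh4, 0.0024 for Kcnk12 and 0.00017 for Kcnk15, and a pericyte slope of 0.00049 for Kcnk15. Kcnh2 was at -0.022 on the Schwann cell score with the list's first component. The cause was not tested.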
